A study of Macaca fascicularis with 8 samples.

Results

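The genes described here are 50 enzymes and enzyme subunits that put methyl groups on histones, take them off, or take acetyl groups off: 2 LSD demethylases, 12 Jumonji C (JmjC) demethylases, 5 subunits or cofactors of Polycomb repressive complex 2 (PRC2), 8 H3K4 methyltransferases, 3 methyltransferases of H3K36 or H3K79, 5 of H3K9, 3 arginine methyltransferases, 2 PRDM factors, 8 zinc-dependent deacetylases and 2 sirtuins. They were taken by name from the 33121 genes of the deposited table, by the gene name where the table gave one (13 genes) and otherwise by the protein that the row matched (37 genes). All 50 had a row, and all 50 reached 1 RPKM (reads scaled by gene length and library depth) in at least 4 of the 8 libraries and so were tested.

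Embryonic stem cells (ESCs) of the cynomolgus monkey (Macaca fascicularis) gave the polyadenylated RNA, with 4 libraries of primed and 4 of dome-shaped cells. Primed ESCs are pluripotent and form flat colonies; here they were kept in CESM, a mix of the commercial medium PSGro with conventional monkey ESC medium, and their passage as single cells was labelled weak. Dome-shaped ESCs grew in NHSMV, a knockout DMEM base with AlbuMAXI, N2 supplement, insulin, glutamine, nonessential amino acids and β-mercaptoethanol, with LIF (10 ng/ml), bFGF (8 ng/ml) and TGF-β1 (1 ng/ml), with the MEK inhibitor PD0325901 (1 μM), the GSK3 inhibitor CHIR99021 (3 μM), the p38 inhibitors SB202190 (5 μM) and SB203580 (10 μM) and the JNK inhibitor SP600125 (10 μM), and with vitamin C (50 μg/ml); their passage as single cells was labelled strong. Vitamin C was 1 of many components that came together with the dome-shaped group, and the vitamin C content of the primed medium is not given in the labels, so its part cannot be told apart from that of the rest of the medium. No genetic change is labelled for either group. The titles carry a number after CES that 2 dome-shaped libraries share and 2 primed libraries share, and nothing says that the 4 libraries of a group were separate cultures, so p-values measure the spread between these libraries only. The titles of primed replicate 4 and dome-shaped replicate 4 differ only in their last letter.

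The histone tail carries marks that these enzymes write and erase. PRC2 methylates H3K27 at silent developmental genes, H3K4 methyltransferases mark promoters and enhancers, and H3K9 methyltransferases mark heterochromatin and silenced repeats. JmjC demethylases are dioxygenases that need iron and 2-oxoglutarate, and ascorbate (vitamin C) is known as a cofactor that supports this enzyme family in vitro. LSD demethylases use flavin instead, and deacetylases work in large corepressor complexes. RNA levels, which is what was measured here, say nothing of the activity of these enzymes.

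Libraries held 16360000 to 18080000 implied reads in primed and 14400000 to 17680000 in dome-shaped cells, and 15141 to 15830 genes at 1 RPKM or more. The first principal component over all genes tested held 49.3% of the variance; primed libraries lay at -37.0 to -28.6, dome-shaped replicates 1 to 3 at 40.7 to 41.1 and dome-shaped replicate 4 at 9.92. Pluripotency genes were present in all 8 libraries (LIN28A at 733 RPKM or more, SOX2 at 172 or more), while POU5F1 was paired with no row. The summed level of the 8 pluripotency markers with a row was 2560 to 2930 RPKM in primed libraries, 1780 to 1830 in dome-shaped replicates 1 to 3 and 2470 in dome-shaped replicate 4, and 4 of the 8 (LIN28B, DPPA4, TDGF1 and TERF1) were called lower, though none of these in all 8 fits that left out 1 library. Of the fibroblast markers DCN, POSTN and FAP were below 1 RPKM in every library, and the sum of all 10 was 281 to 1320 RPKM in primed and 472 to 751 in dome-shaped libraries. Sums were 220 to 437 against 258 to 376 RPKM for neural markers, 60.0 to 367 against 13.9 to 175 for endoderm, 30.6 to 137 against 42.0 to 65.7 for trophoblast and amnion and 6.78 to 19.5 against 5.89 to 11 for germ cell markers; the part of these cells in the results was not tested. NES weighed heavily in the neural sum, TAGLN in the fibroblast sum and VTCN1 in that of trophoblast and amnion. The median log2 fold change was 1.11 over the 4 neural markers tested and -0.81 over 6 of fibroblasts. It was -0.71 over 6 of endoderm, -1.52 over 4 of trophoblast and amnion and -0.46 for 1 of germ cells. Of these lists FABP7 (neural) was called higher, with a log2 fold change of 1.5 (limma adjusted p = 0.00189). FABP7 was below 1 RPKM in every primed library and passed the filter through the dome-shaped group. HAND1 was below 1 RPKM in every dome-shaped library and passed it through the primed group. FOXA2 (endoderm) was called lower (-2.55, limma adjusted p = 0.00901), as were HAND1 (trophoblast and amnion, 0.0219; lost without primed replicate 2 or 4 or dome-shaped replicate 2 or 3, at most 0.0639) and PDGFRB (fibroblast, 0.0247; kept only without primed replicate 3 or dome-shaped replicate 3 or 4, otherwise up to 0.0744). In such bulk samples fewer cells of a type and less RNA per cell cannot be told apart.

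Most of the 50 enzymes differed little between the states. In a limma comparison on log2(RPKM + 1), adjusted by Benjamini and Hochberg's method over the 15597 genes that passed the filter, 3 members passed 0.05 as higher in dome-shaped cells (EZH2, HDAC3 and HDAC9) and 3 as lower (JARID2, KDM5B and KDM2B). That is 12% of the 50, against 14.3% of all genes tested (6.38% higher, 7.96% lower), so the share called was near the background. The groups did not overlap for 10 members, 4 higher and 6 lower, which is 20% against 22.2% of all genes. A difference under 0.5 on the log2 scale in either direction was seen for 44 of 50 members and for 79.5% of all genes. The median log2 fold change was -0.10 over the members and 0.03 over all genes tested, and 34 members had a negative and 16 a positive value, while 53.2% of all genes had a positive one. An unadjusted p under 0.05 by limma was found for 16 members and for 31.6% of all genes tested. Without dome-shaped replicate 4 the calls were 4 higher and 4 lower, and without primed replicate 1 they were 2 higher and 4 lower.

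**Figure D1:**
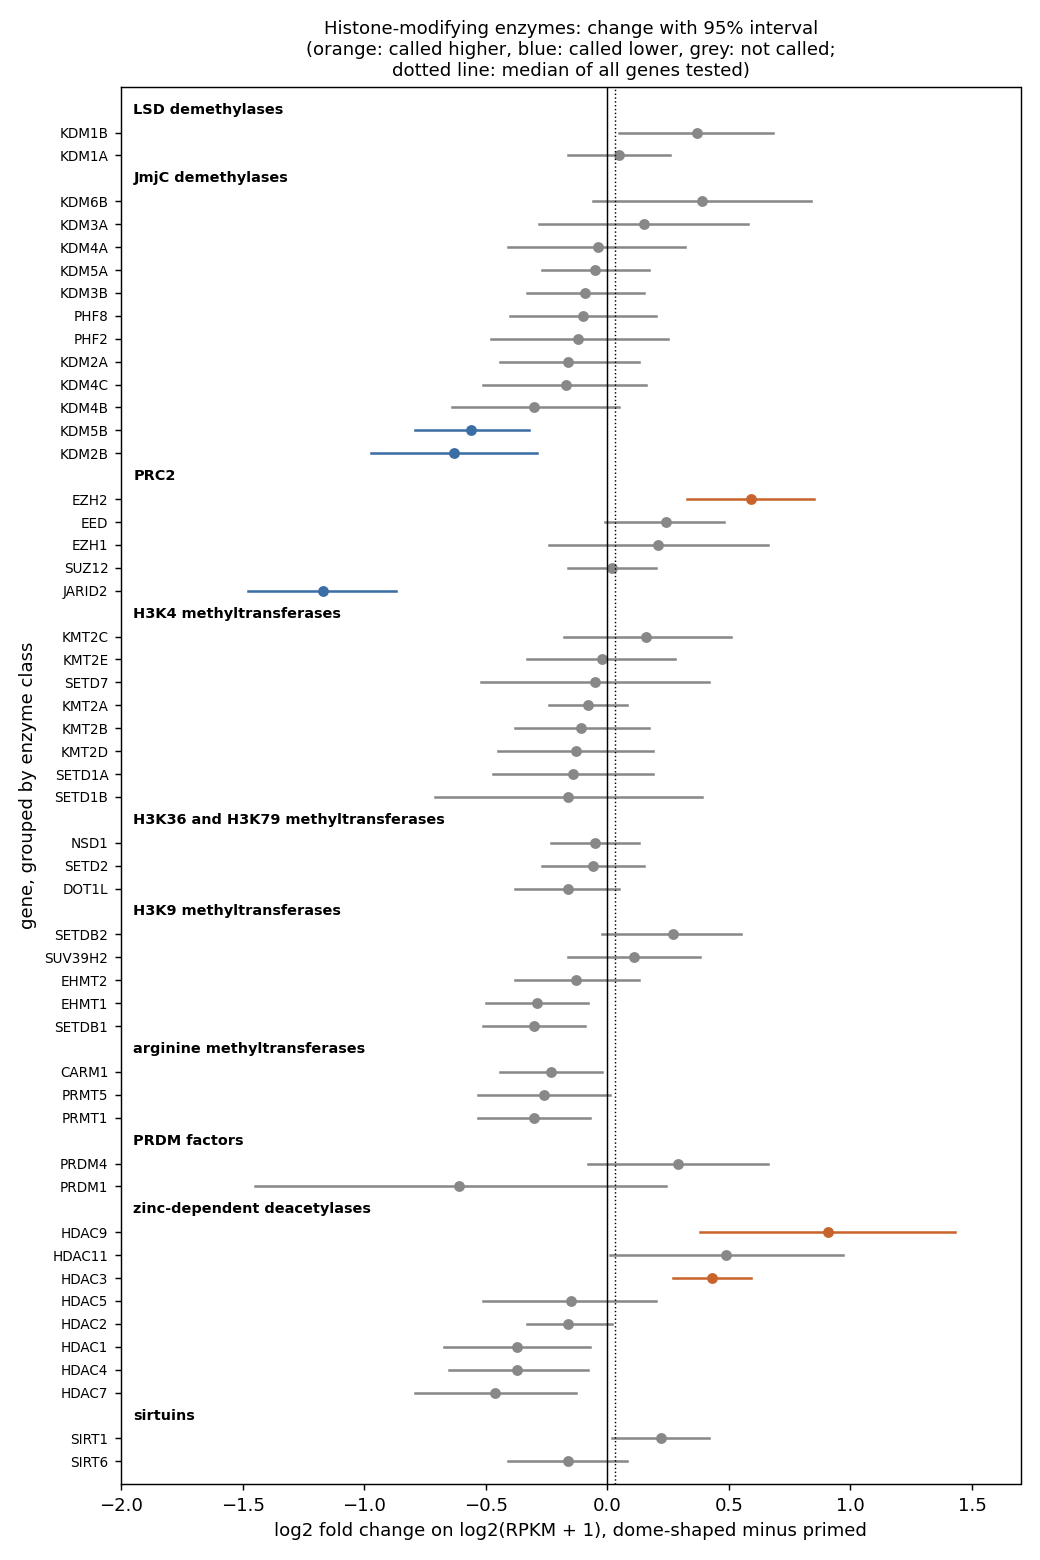
Log2 fold change (dome-shaped minus primed, on log2(RPKM + 1), horizontal axis) of each of the 50 genes, grouped by class (vertical axis). Points are limma estimates from 4 against 4 libraries and lines their 95% intervals; 3 genes are coloured as higher and 3 as lower, and JARID2 at -1.17 and HDAC9 at 0.91 lie farthest from 0.

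Levels spanned a wide range. Arginine methyltransferase PRMT1 was the most abundant member, at 418 RPKM over the 8 libraries, followed by HDAC2 at 282, PRMT5 at 115 and JARID2 at 100. The lowest were PRDM1 at 1.51, HDAC9 at 1.93, EZH1 at 3.97, PRDM4 at 4.03 and SETD7 at 4.24 RPKM. The median member stood at 26.4 RPKM, above the median of 12.9 RPKM over all genes tested. RPKM is scaled by length, so these levels can be set side by side, except that 9 members rest on a row with a query length under 1000 bases (SUZ12, HDAC1, KMT2A, KDM1B, HDAC11, KMT2E, SETDB1, SETDB2 and PRMT1) and may hold only a piece of the gene.

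PRC2 held the largest decrease of the module beside one of its 3 increases. JARID2 is a cofactor of PRC2 that belongs to the JmjC family without being an active demethylase, and it helps bring the complex to its targets. It stood at 120, 137, 167 and 133 RPKM in primed replicates 1 to 4 and at 61.9, 51.3, 56.5 and 76.1 RPKM in dome-shaped replicates 1 to 4. Every dome-shaped library lay below every primed library, and dome-shaped replicate 4 was the highest of its group. JARID2 fell by 1.17 on the log2 scale (SE 0.14, adjusted p = 0.00203 by limma), to 0.441 of the primed mean. A second row that matched JARID2, with an identifier of the authors' own, went from 16.6 ± 2.12 to 8.09 ± 1.84 RPKM (SD, n = 4 each; log2 fold change -0.97, limma adjusted p = 0.00847). The call held in each of the 8 fits that left out 1 library, with log2 fold changes from -1.28 to -1.08.

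EZH2 is the main catalytic subunit of PRC2 in dividing cells. Its level was 50.3, 45.5, 48.1 and 46.1 RPKM in the primed libraries and 63.3, 83.0, 84.1 and 61.3 RPKM in the dome-shaped ones. The groups were apart, with dome-shaped replicates 2 and 3 well above replicates 1 and 4. EZH2 rose by 0.59 (SE 0.12, adjusted p = 0.0122 by limma), or 1.54 times the primed mean, and stayed called in all 8 fits that left out a library.

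The other PRC2 members were not called. EED, which binds methylated H3K27 and stimulates the enzyme, stood at 25.8 to 28.4 RPKM in primed libraries and at 34.3, 34.9, 35.7 and 25.8 RPKM in dome-shaped ones, so that replicate 4 alone lay within the primed range. Its log2 fold change was 0.24 (95% interval -0.01 to 0.48, limma adjusted p = 0.175), and without dome-shaped replicate 4 it was 0.34 with an adjusted p of 0.0206. EZH1, the second catalytic subunit, was 2.79 to 4.47 against 3.40 to 6.45 RPKM (0.21, interval -0.24 to 0.66). SUZ12, the scaffold, differed by 0.02 (interval -0.16 to 0.20), but its row has a query length of 294 bases and aligns over 27 residues to a matched entry of only 88 residues, so it may not speak for the gene. EZH2 exceeded EZH1 by 10.3 to 18.0 times in primed and by 9.81 to 22.7 times in dome-shaped libraries, with overlapping groups.

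**Figure D2:**
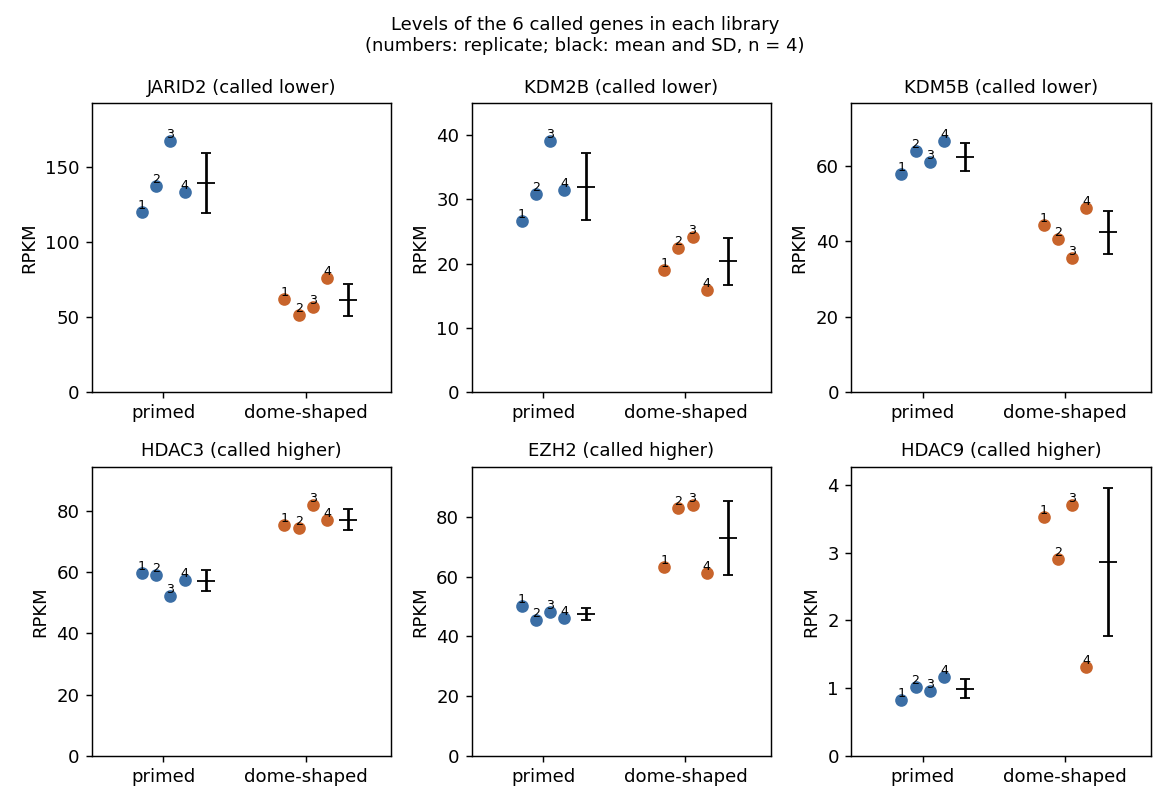
RPKM (vertical axis, from 0) of the 6 called genes in each primed (blue) and dome-shaped (orange) library; numbers give the replicate, black bars the mean and SD over 4 libraries. The groups do not overlap for any of the 6, and HDAC9 in dome-shaped replicate 4 (1.31 RPKM) lies just above the primed libraries.

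Among the 12 JmjC demethylases 2 fell and none rose, or 16.7% called against 14.3% of all genes (7.96% lower); 10 had a negative log2 fold change, with a median of -0.11. No other member of the class had an unadjusted p under 0.05. KDM5B removes methyl groups from H3K4. Primed libraries held 57.9, 64.1, 61.1 and 66.7 RPKM of it and dome-shaped libraries 44.4, 40.6, 35.6 and 48.9 RPKM. The groups were apart, and the highest dome-shaped value was again that of replicate 4. KDM5B fell by 0.56 (SE 0.10, adjusted p = 0.0101 by limma), to 0.679 of the primed mean, and was called in all 8 fits without 1 library. Its close relative KDM5A, which has the same substrate, ranged from 12.6 to 13.9 RPKM in the primed and from 11.6 to 13.7 RPKM in the dome-shaped group (log2 fold change -0.05, interval -0.27 to 0.17). The ratio of KDM5A to KDM5B was therefore 0.203 to 0.228 in primed and 0.260 to 0.386 in dome-shaped libraries, a mean log2 difference of 0.51 over groups that did not overlap.

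KDM2B is an H3K36 demethylase that binds unmethylated CpG islands and brings a variant of Polycomb repressive complex 1 (PRC1) there. It stood at 26.6, 30.8, 39.1 and 31.4 RPKM in primed and at 19.0, 22.4, 24.1 and 15.9 RPKM in dome-shaped libraries. The groups were apart by a narrow margin, between primed replicate 1 and dome-shaped replicate 3. KDM2B fell by 0.63 (SE 0.15, adjusted p = 0.0260 by limma), to 0.637 of the primed mean. The call was lost without primed replicate 2 (adjusted p = 0.0634), primed replicate 3 (0.0640), primed replicate 4 (0.0616) or dome-shaped replicate 1 (0.0541), with log2 fold changes of -0.64, -0.53, -0.63 and -0.60. KDM2A, its relative, was not called (log2 fold change -0.16, interval -0.44 to 0.13); it read 22.5, 27.7 and 28.5 RPKM in dome-shaped replicates 1 to 3 but 35.8 RPKM in replicate 4, above all primed libraries.

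The H3K9 demethylases were not called. KDM3A differed by 0.15 (interval -0.28 to 0.58) and KDM3B by -0.09 (interval -0.33 to 0.15); KDM3A was highest, at 18.3 RPKM, in dome-shaped replicate 4. KDM4A, KDM4B and KDM4C, which act on H3K9 and H3K36, had values of -0.04, -0.30 and -0.17, all with intervals that include 0. KDM4A (primed 64.8 ± 11.8 RPKM, dome-shaped 62.9 ± 11.6 RPKM; SD, n = 4 each) was the most abundant member of the JmjC class. PHF8 and PHF2, which carry a PHD finger that reads methylated H3K4 and remove H3K9 methylation, were at -0.10 and -0.12. KDM6B, an eraser of H3K27 methylation, stood at 6.31, 10.4, 11.5 and 12.5 RPKM in primed and 14.2, 15.7, 12.9 and 10.7 RPKM in dome-shaped libraries; the groups overlapped through dome-shaped replicate 4, and the difference of 0.39 (interval -0.06 to 0.84) was not called.

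Of the LSD demethylases, KDM1A, which removes H3K4 methylation in corepressor complexes, was abundant in both groups (primed 91.8 ± 6.50 RPKM, dome-shaped 95.3 ± 10.7 RPKM; SD, n = 4 each; log2 fold change 0.05, interval -0.16 to 0.26). KDM1B stood at 3.92, 3.74, 3.87 and 4.73 RPKM in primed and at 5.64, 6.67, 5.25 and 4.62 RPKM in dome-shaped libraries. Its difference of 0.37 (interval 0.05 to 0.68) did not pass the threshold (limma adjusted p = 0.114), and its row of 600 bases is short. KDM1A exceeded KDM1B by 20.1 to 25.0 times in primed and 13.5 to 20.6 times in dome-shaped libraries.

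None of the 8 H3K4 methyltransferases was called, and none had an unadjusted p under 0.05 by limma; their log2 fold changes lay between -0.16 and 0.16. KMT2A and KMT2B, which act at promoters, differed by -0.08 (interval -0.24 to 0.08) and -0.11 (interval -0.38 to 0.17). Of the rows used, that of KMT2A read highest in the class, at 39.5 ± 1.33 RPKM in the primed group and 37.3 ± 1.92 RPKM in the other (SD, n = 4 each). Its query length is 577 bases, so this level may not speak for the whole gene. A second row that matched SETD1A, of 195 bases, read higher, at 58.95 RPKM over the 8 libraries (log2 fold change -0.02). KMT2C and KMT2D, the enhancer enzymes, differed by 0.16 (interval -0.18 to 0.51) and -0.13 (interval -0.45 to 0.19). KMT2E, a relative whose own methyltransferase activity is in doubt, was at -0.02, SETD1A and SETD1B, the catalytic subunits of the SET1 complexes, were at -0.14 and -0.16, and SETD7, which also methylates many proteins other than histones, was at -0.05. SETD1B was the most variable of these: primed replicate 1 had 15.7 RPKM and the other primed libraries 31.2 to 35.0 RPKM, and its row matches 6.6% of the protein. The other rows that matched SETD1B differed by -0.09 and by 0.03, with overlapping groups. In the first of them primed replicate 1 had 10.1 RPKM and the other primed libraries 13.4 to 16.8 RPKM.

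The 3 enzymes of H3K36 and H3K79 were close to the primed level. SETD2, which places the H3K36 trimethyl mark along transcribed genes, differed by -0.06 (interval -0.27 to 0.15), NSD1, which places the dimethyl mark, by -0.05 (interval -0.23 to 0.13), and DOT1L, the H3K79 enzyme, by -0.16 (interval -0.38 to 0.05).

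Of the 5 H3K9 methyltransferases none was called, and 2 had an unadjusted p under 0.05 by limma (31.6% of all genes). SETDB1, the enzyme that silences endogenous retroviruses in stem cells, stood at 51.3, 60.1, 65.6 and 58.2 RPKM in primed and at 45.4, 45.7, 53.2 and 45.8 RPKM in dome-shaped libraries. Only dome-shaped replicate 3 reached the primed range. The difference of -0.30 (SE 0.09, limma adjusted p = 0.0608) passed the threshold without primed replicate 1 (-0.36, adjusted p = 0.0352) and with median-of-ratios scaling (-0.32, adjusted p = 0.0480). EHMT1 forms a dimer with EHMT2 that dimethylates H3K9. Its groups did not overlap, narrowly, at 56.1, 64.3, 55.5 and 60.4 RPKM against 43.2, 49.3, 55.0 and 45.8 RPKM (log2 fold change -0.29, limma adjusted p = 0.0654). EHMT2 overlapped (-0.13, interval -0.38 to 0.13), and the ratio of EHMT1 to EHMT2 was 0.528 to 0.679 in primed and 0.465 to 0.562 in dome-shaped libraries. SUV39H2, an enzyme of pericentric heterochromatin, differed by 0.11 (interval -0.16 to 0.38) and SETDB2 by 0.27 (interval -0.02 to 0.55).

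All 3 arginine methyltransferases had negative log2 fold changes, and none was called; 2 had an unadjusted p under 0.05 by limma, as had 31.6% of all genes. PRMT1, the main enzyme of asymmetric arginine dimethylation, stood at 413, 491, 435 and 505 RPKM in primed and at 328, 349, 397 and 429 RPKM in dome-shaped libraries. The groups overlapped through dome-shaped replicate 4. Its difference was -0.30 (interval -0.53 to -0.07, limma adjusted p = 0.0844), and -0.36 with an adjusted p of 0.0423 without dome-shaped replicate 4. PRMT5, the main enzyme of symmetric dimethylation, did not overlap between the groups (122 to 134 against 79.6 to 119 RPKM), with dome-shaped replicate 1 far below the rest, and its difference of -0.26 was not called (interval -0.53 to 0.01). CARM1, a coactivator that methylates histone H3, was at -0.23 (interval -0.44 to -0.02, limma adjusted p = 0.124), and passed the threshold without dome-shaped replicate 1 (-0.30, adjusted p = 0.0444).

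The PRDM factors were the least abundant class. PRDM1 is a transcriptional repressor that acts in germ cell and plasma cell development. It was read at 0.503, 2.16, 3.47 and 2.06 RPKM in primed and at 1.14, 0.677, 1.94 and 0.141 RPKM in dome-shaped libraries. The groups overlapped widely (log2 fold change -0.61, interval -1.45 to 0.24), and its lowest value rested on about 10 implied reads. PRDM4, a zinc finger factor that binds PRMT5, was at 0.29 (interval -0.08 to 0.66).

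Of the 8 zinc-dependent deacetylases 2 rose and none fell (14.3% of all genes were called, 6.38% as higher). An unadjusted p under 0.05 by limma was found for 6, as for 31.6% of all genes. Of these, HDAC3, HDAC9 and HDAC11 had positive and HDAC1, HDAC4 and HDAC7 negative log2 fold changes. HDAC3 is the catalytic subunit of the NCoR and SMRT corepressor complexes. It stood at 59.9, 59.3, 52.3 and 57.5 RPKM in primed and at 75.4, 74.5, 82.0 and 77.0 RPKM in dome-shaped libraries. Both groups were tight and far apart, and dome-shaped replicate 4 lay among the other dome-shaped libraries. HDAC3 rose by 0.43 (SE 0.07, adjusted p = 0.00704 by limma), or 1.35 times, and was called in all 8 fits without 1 library.

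HDAC9, a class IIa deacetylase with little activity of its own that recruits corepressors, was near 1 RPKM in primed cells. It was 0.825, 1.02, 0.957 and 1.16 RPKM there and 3.53, 2.91, 3.71 and 1.31 RPKM in dome-shaped libraries. Dome-shaped replicates 1 to 3 were well above the primed range and replicate 4 just above it. HDAC9 rose by 0.91 on log2(RPKM + 1) (SE 0.23, adjusted p = 0.0333 by limma), a scale that understates the change of such a low gene. Its mean RPKM in dome-shaped libraries was 2.89 times the primed mean. Primed replicates 1 and 3 lay below 1 RPKM, so HDAC9 passed the filter through the dome-shaped group, where it was high. Without dome-shaped replicate 4 the adjusted p was 0.00301; without any other single library the call was lost, with an adjusted p of 0.0641 to 0.0906, and with no filter on low values it was 0.0574.

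The other class IIa members had negative log2 fold changes and were not called. HDAC7 was 25.9, 26.5, 30.6 and 21.0 RPKM in primed and 14.7, 20.6, 21.2 and 18.1 RPKM in dome-shaped libraries, overlapping by a narrow margin (log2 fold change -0.46, interval -0.79 to -0.13, limma adjusted p = 0.0632). A second HDAC7 row differed by -0.42 (adjusted p = 0.0792). HDAC4 did not overlap, at 5.64 to 6.95 RPKM against 4.07 to 5.18 RPKM (-0.37, interval -0.65 to -0.08, limma adjusted p = 0.0833). HDAC5 did overlap (-0.15, interval -0.51 to 0.20). HDAC11, the class IV deacetylase, was at 0.49 (interval 0.01 to 0.97, limma adjusted p = 0.151). Dome-shaped replicate 1 alone had 13.9 RPKM of it, the other dome-shaped libraries 6.43 to 8.52 RPKM and the primed ones 5.07 to 7.63 RPKM.

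HDAC1 and HDAC2 are the exchangeable catalytic subunits of the NuRD, SIN3 and CoREST complexes. HDAC1 stood at 92.6, 105, 103 and 103 RPKM in primed and at 105, 68.5, 74.6 and 67.8 RPKM in dome-shaped libraries. Dome-shaped replicate 1 matched the highest primed value, and the other dome-shaped libraries lay below all of them. The difference was -0.37 (interval -0.67 to -0.07, limma adjusted p = 0.0958), and without dome-shaped replicate 1 it was -0.51 with an adjusted p of 0.00746; the row is 471 bases long. HDAC2 was at -0.16 (interval -0.33 to 0.02). HDAC2 exceeded HDAC1 in every library, the ratio of HDAC1 to HDAC2 being 0.313 to 0.348 in primed and 0.249 to 0.381 in dome-shaped cells.

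Sirtuins are deacetylases that use NAD. SIRT1 stood at 33.4 to 40.0 RPKM in primed and at 41.2, 42.5, 40.2 and 48.4 RPKM in dome-shaped libraries, so the groups did not overlap but were separated by less than 1 RPKM. The difference of 0.22 (interval 0.02 to 0.42) was not called (limma adjusted p = 0.124). SIRT6, which acts on H3K9 and H3K56 acetylation, was at -0.16 (interval -0.41 to 0.08).

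**Figure D3:**
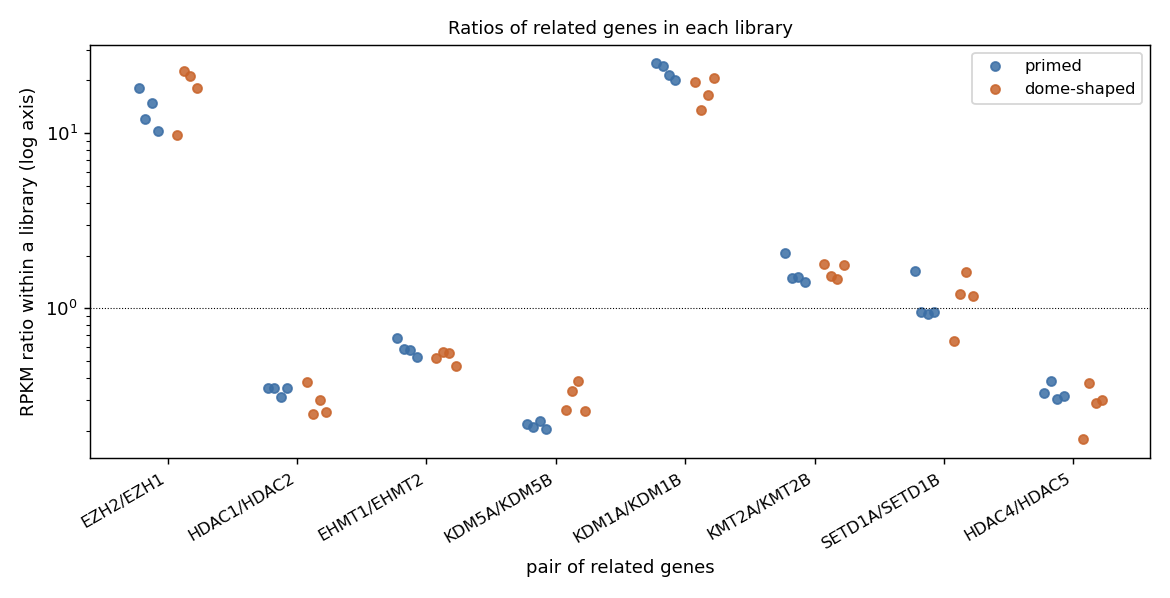
Ratio of the RPKM values of 8 pairs of related genes (horizontal axis) in each primed (blue) and dome-shaped (orange) library, on a log axis. Only KDM5A/KDM5B keeps the groups apart, at 0.203 to 0.228 against 0.260 to 0.386.

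Some libraries were low over many of these genes. Primed replicate 1 was the lowest of the 4 primed libraries for 33 of 50 members, where it was the lowest for 36.1% of all genes tested. Among them were KDM4A (48.8 against 63.5 to 75.6 RPKM), KDM6B, PHF8 (17.4 against 23.6 to 27.3 RPKM), KMT2D (18.2 against 23.1 to 25.4 RPKM) and SETD1B. The same library had 1063 RPKM of TAGLN, a smooth muscle and fibroblast marker, against 212 to 391 RPKM in the other primed libraries. COL1A1 (136 against 38.8 to 74.4 RPKM), COL1A2, COL3A1 and THY1 of the fibroblast list were also highest there among primed libraries. Other markers of that list were not: PDGFRB was 9.94 RPKM against 7.25 to 10.1, and LUM was 0.0655 RPKM but 11.8 in primed replicate 3. DCN, POSTN and FAP were below 1 RPKM. The part of such cells was not tested. Without primed replicate 1 the median member log2 fold change was -0.17 and that of all genes 0.02. Dome-shaped replicate 4 was nearer to the primed mean than to the mean of the other dome-shaped libraries for 20 of 50 members, against 47.0% of all genes. Among the 6 called genes this was so for HDAC9, and for KDM2B the same library lay on the far side, below all other dome-shaped libraries.

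**Figure D4:**
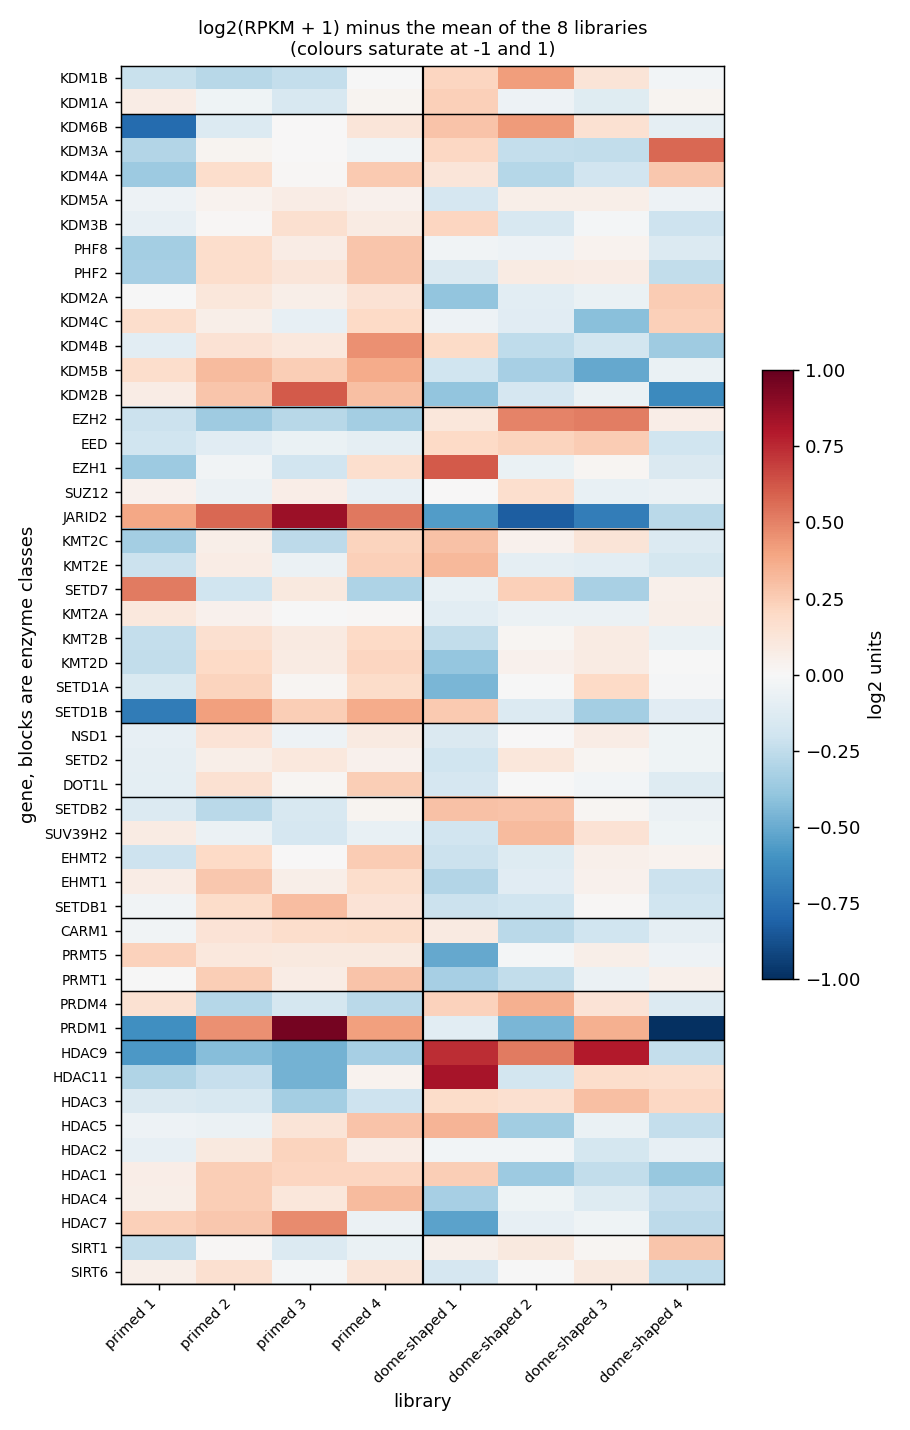
Log2(RPKM + 1) of the 50 genes (rows, in class blocks) in the 8 libraries (columns), minus each gene's mean over the libraries; red is above and blue below that mean. JARID2 and HDAC9 show the strongest contrast between the groups, and primed replicate 1 is blue for many genes that are red in the other primed libraries.

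Among 165 tested genes of 11 related lists 25 were called, 13 higher and 12 lower, or 15.2% against 14.3% of all genes. Of the 25, 7 were called in each of the 8 fits that left out 1 library: PRMT3, PRMT8, NCOA1, BOD1L1, PHC1, P3H1 and SLC2A1. Of 9 other demethylases 2 fell and none rose. KDM6A, the H3K27 demethylase encoded on the X chromosome, was 33.3, 24.5, 45.7 and 27.4 RPKM in primed and 18.0 to 19.8 RPKM in dome-shaped libraries (log2 fold change -0.71, limma adjusted p = 0.0247; lost without primed replicate 1 or dome-shaped replicate 2 or 3, at most 0.0668). Its dome-shaped values were tight and below every primed one. RIOX2, a ribosomal oxygenase, fell by 0.49 (limma adjusted p = 0.0321, kept only without dome-shaped replicate 4, at 0.0337).

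Of 28 other methyltransferases 4 rose and 1 fell, where 6.38% of all genes were higher and 7.96% lower. PRMT8, an arginine methyltransferase of neurons, was 0.215 to 1.38 RPKM in primed and 3.30 to 6.18 RPKM in dome-shaped libraries. Its log2 fold change of 1.79 (SE 0.27, limma adjusted p = 0.00444) was larger than that of any of the 50 members. PRMT8 passed the filter through the dome-shaped group, as did FABP7, so their calls do not support each other. FABP7 and the median of the tested neural markers were higher, as given above, and the part of such cells was not tested. PRMT3, a ribosomal protein methyltransferase, rose from 11.5 ± 1.45 to 19.2 ± 2.72 RPKM (SD, n = 4 each; limma adjusted p = 0.0109). NSD2, a relative of NSD1, was 79.3 ± 10.9 RPKM in primed (SD, n = 4) and 173, 137, 160 and 89.0 RPKM in dome-shaped libraries (0.77, limma adjusted p = 0.0295; kept only without primed replicate 1 or dome-shaped replicate 4, otherwise up to 0.0814). Named after their values were seen, PRDM2 rose (0.34, adjusted p = 0.0464) and PRDM14, a factor of pluripotency and germ cells, fell (-1.22, adjusted p = 0.0401); each kept its call in 2 of the 8 fits without 1 library, with dome-shaped replicate 4 left out in one and dome-shaped replicate 1 (PRDM2) or 2 (PRDM14) in the other.

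Among Polycomb partners the calls were read against 14.3% of all genes called. Of 9 PRC2 partners 1 fell, AEBP2, which read 49.2 to 51.1 RPKM in primed libraries and 37.0, 29.7, 26.2 and 45.7 RPKM in dome-shaped ones (log2 fold change -0.56, limma adjusted p = 0.0392; kept only without dome-shaped replicate 4, at 0.00586). Of 21 PRC1 genes 2 rose and 2 fell. PHC1, a polyhomeotic subunit, was 129 to 168 RPKM in primed and 47.8, 61.3, 49.1 and 114 RPKM in dome-shaped libraries (-1.21, SE 0.25, limma adjusted p = 0.0143). Its groups did not overlap, and dome-shaped replicate 4 stood nearest to the primed ones. CBX7, a reader of methylated H3K27, fell by 1.05 (limma adjusted p = 0.0198; lost without primed replicate 2 or 4 or dome-shaped replicate 2 or 3, at most 0.0576). PCGF5 rose by 0.70 (limma adjusted p = 0.0314; kept only without primed replicate 1 or dome-shaped replicate 4, otherwise up to 0.0873), and so did SCMH1, named after its value was seen, by 0.67 (adjusted p = 0.0420; kept only without dome-shaped replicate 4, otherwise up to 0.104).

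Acetyltransferases place the acetyl marks that deacetylases remove. The counts that follow stand beside 14.3% of all genes called (6.38% higher, 7.96% lower). Of 12 acetyltransferases NCOA1, a nuclear receptor coactivator, rose from 6.07 ± 1.29 to 11.9 ± 2.06 RPKM (limma adjusted p = 0.0125) and KAT6B fell from 14.1 ± 1.92 to 8.39 ± 1.31 RPKM (adjusted p = 0.0156, and 0.0519 without primed replicate 2; SD, n = 4 each). Of 8 other deacetylases SIRT2, which also deacetylates tubulin, rose by 0.85 (limma adjusted p = 0.0451; kept only without dome-shaped replicate 1 or 4, otherwise up to 0.106) and HDAC10 fell by 0.41 (0.0410; kept only without dome-shaped replicate 1, otherwise up to 0.112). Of 13 H3K4 complex partners BOD1L1, a partner of the SET1 complex, rose (62.3 to 97.2 RPKM in primed and 129 to 155 RPKM in dome-shaped libraries; 0.91, SE 0.13, limma adjusted p = 0.00411). PSIP1, a chromatin reader that binds KMT2A complexes, fell by 0.36 (adjusted p = 0.0289; lost without primed replicate 2, 3 or 4 or dome-shaped replicate 2 or 3, at most 0.0802). Of 29 corepressor partners GSE1 fell by 0.58 (limma adjusted p = 0.0335; kept only without primed replicate 1 or dome-shaped replicate 1, otherwise up to 0.0935), and of 9 H3K9 readers CDYL fell by 0.31 (0.0287; kept without primed replicate 3 or dome-shaped replicate 1 or 4, otherwise up to 0.0807).

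Enzymes that share the cofactors of the JmjC family outside chromatin were followed too. Of 23 tested, 4 rose and none fell, where 6.38% of all genes were higher; the count of 4 dropped to as few as 1 under the alternatives. P3H1 and P4HA1, prolyl hydroxylases of collagen, rose by 0.63 each (limma adjusted p = 0.0101 and 0.0242), and ASPH, an aspartyl hydroxylase, rose from 61.4 ± 14.4 to 93.5 ± 10.8 RPKM (SD, n = 4 each; adjusted p = 0.0265). The P4HA1 call was lost without primed replicate 1, 3 or 4 (at most 0.0636) and that of ASPH was kept only without primed replicate 1 or dome-shaped replicate 4 (otherwise up to 0.0711). EGLN1, the oxygen sensor of the hypoxia response, named after its value was seen, rose by 0.58 (adjusted p = 0.0429; kept only without primed replicate 4 or dome-shaped replicate 4, otherwise up to 0.117). Of 4 tested genes of ascorbate transport SLC2A1, the glucose transporter that also carries oxidised vitamin C, fell, where 7.96% of all genes were lower. SLC2A1 held 150 to 219 RPKM in primed and 70.2 to 137 RPKM in dome-shaped libraries (log2 fold change -0.98, SE 0.19, limma adjusted p = 0.0122). The vitamin C transporter SLC23A1 was below 1 RPKM in every library. A second vitamin C transporter, SLC23A2, stood at 19.4 to 25.5 RPKM in primed and at 11.3 to 21.8 RPKM in dome-shaped libraries. It was not called (-0.42, limma adjusted p = 0.17).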

How the data were processed

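The authors deposited 1 table of RPKM values per gene for the 8 libraries, with a query length and protein matches with their percent identity. Per the submitters' processing notes HTSeq 0.6.1, TopHat2 2.0.9 and Bowtie2 2.0.6 were used. Build, annotation and use of strand: not given in the sources used here. So reads of overlapping genes and of close copies may be shared. The columns of 3 dome-shaped libraries carried shortened titles that fitted 1 sample each; columns of other samples numbered 0. Of 33138 rows 17 named no gene and were left out.

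A member's row was the one the table names, or else one whose best protein match of at least 85% identity names its protein (31 genes) or whose near-best match, with at least 0.95 of the best score, does (6 genes: KDM1B, KDM3A, KDM4C, EZH1, SUV39H2 and NSD1). Of several rows, 9 members having them, the one named in the earliest of these ways was used, and within it the one with the highest mean. So for HDAC7 and SETD1A a near-best row with a higher mean (27.57 and 58.95 RPKM) was passed over. For SUV39H2 the only row with such a best match was at 0.045 RPKM or less, so the near-best one was taken. Products of RPKM and query length came in steps that imply the read totals given. Only 71.87% to 73.77% of the values below 50 reads came out whole (tolerance 0.01 read; 2.0% would by chance), too few to recover reads for nearly all genes, and no count model was run. Replicates differed by more than sampling noise (chi-square per degree of freedom at least 7.46).

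Genes that reached 1 RPKM in 4 or more of the 8 libraries were tested on log2(RPKM + 1) with limma 3.58.1 in R 4.3.3 (mean trend, two-sided, Benjamini-Hochberg, threshold 0.05). The step was run on simulated libraries with independent noise for each gene, which cannot show how it copes with shifts shared by a whole library. A fold change on this scale understates the change of low genes. Intervals are limma's 95% intervals for 1 gene, unadjusted. All 50 members are named, and of each other list up to 3 called genes with the smallest adjusted p; PRDM2, PRDM14, SCMH1 and EGLN1 lie outside that rule and were named after their values were seen. The members and lists were chosen with earlier results of these data known. Alternatives were pseudocounts of 0.1 and 0.5, scaling by quantiles or by the median of ratios, no filter or one at a mean of 5 RPKM, each library left out, the title number as a block and, for members with several rows, the longest row. The same fits for the other lists were added after seeing the data. Figures were drawn with matplotlib 3.10.9. Sequences and coordinates were not used here.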

Additional observations from a re-analysis of the deposited data

Results flagged for a closer look

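Within a group of 4 libraries, 1 library stood far from the other 3 (by Dixon's 95% criterion for its gap relative to the range) in 5 of the 100 groups formed by 50 genes and 2 states, and chance gives about 1 in 20. EED in dome-shaped replicate 4 was 25.8 RPKM, with the others at 34.3 to 35.7. KMT2E in dome-shaped replicate 1 was 38.4 RPKM, with the others at 27.0 to 28.7. SETDB1 in dome-shaped replicate 3 was 53.2 RPKM, with the others at 45.4 to 45.8. PRMT5 in primed replicate 1 was 134 RPKM, with the others at 122 to 123. HDAC1 in primed replicate 1 was 92.6 RPKM, with the others at 103 to 105.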

How the results depend on the processing

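Counts of called members stayed at 2 to 4 in each direction under every alternative run. Counts over all genes ranged, with each library left out, from 381 to 1289 higher and from 655 to 1441 lower. Correlations of deviations by title number were 0.00, -0.02 and -0.09, and so gave no sign of pairing by these numbers. Number 3 pooled 2 primed libraries, so primed replicate 4 and dome-shaped replicate 4 were not compared alone. With the title numbers as a replicate block, 303 genes were higher and 593 lower, and 2 members were called in each direction. KDM2B and HDAC9 then had limma adjusted p of 0.0835 and 0.0971. Of the 7 genes of other lists called in every fit without 1 library, PHC1 alone lost its call with the block (0.0503). The LSD median was 0.05 at a mean of at least 5 RPKM, where KDM1A alone remained, and class medians with a library left out ranged from 0.04 to 0.30 for PRC2. The HDAC1/HDAC2 log2 difference, -0.21, was 0.24 with the longest HDAC1 row, which is near 0 RPKM. Of 744 member values under alternatives, 707 kept direction and side of the threshold, 14 lost a call (KDM2B and HDAC9), 6 gained one and 17 changed sign, all of uncalled genes near 0. With a library left out these ran from -0.02 to 0.10 for KDM1A, -0.02 to 0.25 for KDM3A, -0.17 to 0.05 for KDM4A, -0.03 to 0.05 for SUZ12, -0.14 to 0.05 for KMT2E and -0.16 to 0.11 for SETD7; with the block KDM4A was 0.05 and SUZ12 -0.00, the latter also with median-of-ratios scaling. The cause was not tested. Median-of-ratios scaling moved the median of all genes to 0.00 and of the members to -0.12. Depth limits PRDM1, whose lowest value rests on about 10 implied reads, a rounded figure and not a recovered count.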
